A study of Mus musculus with 4 samples.

Results

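Among the tumour nuclei of CT26 tumours with and without Sun1, the nuclei with the highest RNA of 6 interferon-induced genes were examined. A nucleus was gated as tumour when it held at least 5 unique molecular identifiers (UMIs, counted RNA molecules) of Hmga2 per 10000 UMIs and at most 1 UMI of Ptprc, which encodes the leukocyte antigen CD45. Each gated nucleus was scored by its summed UMIs per 10000 of Cxcl10, Ifit1, Ifit3, Rsad2, Ly6c1 and Isg15. The top 12% over both genotypes pooled were taken, which gave 439 of 3651 gated nuclei and of 5517 nuclei after filtering. These 439 are called interferon-high nuclei here, 340 from the Sun1_WT and 99 from the Sun1_KO library. The score chose them, so its 6 genes describe the choice, and every other gene was read in nuclei sorted by that choice.

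CT26 is a mouse colon cancer line, and it was grown under the skin of BALB/c mice, the strain it comes from, until day 14. The injected cells were Wildtype (Sun1_WT) or carried a Sun1 knockout (Sun1_KO). Sun1 encodes an inner nuclear membrane protein of the LINC complex, which couples the lamina to the cytoskeleton. RNA and open chromatin were read from the same nuclei, with 1 library per genotype and kind, 4 in all. Whether the knockout line is 1 clone, and whether tumours of several mice were pooled, is not stated by the labels. With 1 library per genotype no difference between genotypes could be tested, and the 95% intervals below cover counting error only.

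Interferons are secreted proteins that warn cells of infection or damage. Type I interferons signal through Ifnar1 and Ifnar2, and interferon gamma through Ifngr1 and Ifngr2; both use JAK kinases and STAT transcription factors to switch on antiviral genes, antigen presentation and chemokines. The promoters of many such genes carry an interferon-stimulated response element (ISRE), bound by IRF proteins, among them Irf9 in complex with STAT proteins. In tumours this programme draws T cells and displays peptides to them, and it also raises inhibitory ligands such as PD-L1.

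The 6 score genes play different parts in that response. Cxcl10 is a chemokine that draws activated T cells and NK cells. Ifit1 and Ifit3 encode proteins that bind foreign RNA, Rsad2 encodes the antiviral enzyme viperin, and Isg15 a ubiquitin-like protein. Ly6c1 encodes a surface antigen of the Ly6 family. Their promoters are shown because 5 of the 6 hold the core letters of an ISRE and Ly6c1 does not. Each sequence is the RefSeq promoter of GRCm38.p6, 250 bases before to 50 after the start, written 5′ to 3′ on the strand of the gene. Capitals mark GAAANNGAAA on either strand, overlapping matches run together. The windows are chr5:92348840-92349139 (minus strand) for Cxcl10, chr19:34640639-34640938 (plus) for Ifit1, chr19:34583279-34583578 (plus) for Ifit3, chr12:26456403-26456702 (minus) for Rsad2, chr4:156200769-156201068 (minus) for Isg15 and chr15:75048788-75049087 (minus) for Ly6c1.
Cxcl10: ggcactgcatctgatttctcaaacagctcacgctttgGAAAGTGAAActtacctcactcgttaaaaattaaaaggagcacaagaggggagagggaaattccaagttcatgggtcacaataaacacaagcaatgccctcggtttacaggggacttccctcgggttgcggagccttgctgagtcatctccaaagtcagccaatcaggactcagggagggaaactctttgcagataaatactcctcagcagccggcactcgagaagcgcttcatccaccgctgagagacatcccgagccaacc
Ifit1: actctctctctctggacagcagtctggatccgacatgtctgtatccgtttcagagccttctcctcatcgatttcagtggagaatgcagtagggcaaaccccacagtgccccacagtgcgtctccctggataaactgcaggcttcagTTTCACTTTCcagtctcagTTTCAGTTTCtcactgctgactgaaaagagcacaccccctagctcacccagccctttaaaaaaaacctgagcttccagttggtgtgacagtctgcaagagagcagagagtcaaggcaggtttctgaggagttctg
Ifit3: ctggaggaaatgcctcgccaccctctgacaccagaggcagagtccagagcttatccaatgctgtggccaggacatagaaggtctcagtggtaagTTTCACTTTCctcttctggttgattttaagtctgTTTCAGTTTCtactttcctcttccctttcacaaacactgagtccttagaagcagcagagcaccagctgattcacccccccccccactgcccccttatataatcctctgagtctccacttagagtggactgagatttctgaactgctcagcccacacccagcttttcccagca
Rsad2: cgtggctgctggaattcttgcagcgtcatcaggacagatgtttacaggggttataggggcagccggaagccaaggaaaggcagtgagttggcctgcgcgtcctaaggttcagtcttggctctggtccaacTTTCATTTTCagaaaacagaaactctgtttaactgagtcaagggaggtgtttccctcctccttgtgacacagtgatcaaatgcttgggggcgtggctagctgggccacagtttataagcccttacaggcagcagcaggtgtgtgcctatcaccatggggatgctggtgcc
Isg15: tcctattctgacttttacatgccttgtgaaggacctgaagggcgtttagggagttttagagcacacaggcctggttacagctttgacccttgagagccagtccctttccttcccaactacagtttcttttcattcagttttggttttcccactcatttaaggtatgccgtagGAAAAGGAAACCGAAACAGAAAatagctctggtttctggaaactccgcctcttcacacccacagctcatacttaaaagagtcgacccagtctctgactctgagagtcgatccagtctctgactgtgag
Ly6c1: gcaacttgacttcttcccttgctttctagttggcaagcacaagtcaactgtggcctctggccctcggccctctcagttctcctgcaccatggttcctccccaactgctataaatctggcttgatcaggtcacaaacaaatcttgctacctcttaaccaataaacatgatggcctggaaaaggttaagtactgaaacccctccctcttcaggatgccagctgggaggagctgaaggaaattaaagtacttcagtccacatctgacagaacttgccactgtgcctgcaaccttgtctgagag

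Ifit1 and Ifit3 held 2 matches each, Isg15 held 3, and Cxcl10 and Rsad2 held 1. The match nearest the start lay 56 bases before it in Isg15, 75 in Ifit1, 110 in Rsad2, 112 in Ifit3 and 203 in Cxcl10. Neither of the 2 Ly6c1 promoters listed held these letters, and none of the 6 genes held the gamma-activated site TTCNNNGAA. Over all 32851 listed promoters, 1131 (3.44%) held GAAANNGAAA and 2726 (8.30%) TTCNNNGAA. A match describes the letters and is no proof of a bound site.

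The nuclei were read against their tumour label first. Tumour markers other than Hmga2 summed to 832 CPM, the count scaled to the depth of all UMIs without mitochondrial genes, in Sun1_WT interferon-high nuclei and 924 in the other gated nuclei. The Sun1_KO values were 928 and 892. In leukocyte reference nuclei, which held at least 3 Ptprc and 0 Hmga2 UMIs, the same markers reached 207 and 200 CPM. Axl alone gave 2381 of the 4684 marker UMIs in Sun1_WT and 667 of 1367 in Sun1_KO interferon-high nuclei. In the leukocyte reference it gave 200 of 370 and 176 of 321. Of the markers with at least 100 UMIs, 2 of 11 and 3 of 10 stood above the other gated nuclei. Their median log2 ratios of interferon-high over other gated nuclei were -0.29 and -0.13. The keratins Krt7, Krt8 and Krt18, and Cdkn2a, were at 0 in the Sun1_KO interferon-high nuclei. The 15 macrophage markers summed to 111 CPM in Sun1_WT interferon-high nuclei against 101 in the others, and to 173 against 140 in Sun1_KO. They stood at 13133 and 8413 CPM in the leukocyte reference. T cell markers reached 4.62 and 6.11 CPM in the interferon-high nuclei, against 5.22 and 8.93 in the others. NK cell markers reached 11 and 21, against 10.5 and 20.3. Cd3e, Cd8a, Cd4 and Trac were at 0 in the Sun1_KO interferon-high nuclei.

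Xist, the RNA of the inactive X chromosome, marked a few nuclei that stood apart. At least 2 Xist UMIs were found in 334 of 400 Sun1_WT and 306 of 396 Sun1_KO leukocyte reference nuclei. The interferon-high nuclei held 8 such nuclei in Sun1_WT (2.35%) and 6 in Sun1_KO (6.06%), against 0.457% and 1.77% of the other gated nuclei. These 14 nuclei held nearly all RNA of several stromal genes. Of the Igfbp3 UMIs in interferon-high nuclei they held 448 of 449 in Sun1_WT and 89 of 92 in Sun1_KO. Of Meg3 they held 126 of 127 and 166 of 166. Of Cxcl10 they held 1.41% and 2.91%. B cell markers summed to 27.0 CPM in Sun1_WT and 88.9 in Sun1_KO interferon-high nuclei, against 1.87 and 20.2 in the others. Ebf1 gave 134 of the 152 and 120 of the 131 B cell marker UMIs in interferon-high nuclei. With the Xist-marked nuclei left out of both groups, the sums were 5.12 and 8.66 CPM against 1.87 and 5.39. Endothelial markers summed to 118 CPM in Sun1_WT interferon-high nuclei and to 47.1 without the Xist-marked nuclei, close to the 42.0 of the other gated nuclei. Fibroblast and pericyte markers summed to 328 and 339 CPM, against 232 and 315 in the others. With the Xist-marked nuclei left out of both groups they summed to 300 and 220 CPM, against 232 and 301. In open chromatin, the first 40 Mb of chromosome X held 2044 CPM of the peak counts in Sun1_KO interferon-high nuclei, 2063 in the others, 3773 in leukocytes and 2919 in the 6 Xist-marked ones. In Sun1_WT the same stretch held 3903, 3635, 3751 and 3415 CPM. The leukocyte value there lay between those of the interferon-high and the other gated nuclei, so the stretch could not place the Xist-marked nuclei. Results that rest on these nuclei are given with and without them, a choice made after seeing the data.

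The median depth was 15961 UMIs in Sun1_WT interferon-high nuclei and 13795 in those of Sun1_KO, against 17204 and 16239 in the others. Below 1537 UMIs a single score UMI reaches the threshold of the score, and 7 Sun1_WT (2.06%) and 13 Sun1_KO (13.1%) interferon-high nuclei lay there. The median mitochondrial share was 6.63% and 10.8%, against 6.74% and 11.4%. The 2 expression libraries shared 12 barcodes, of which 2 were Sun1_WT interferon-high nuclei and none were Sun1_KO ones. Sun1 itself was lower in Sun1_KO but not absent. It stood at 92.5 CPM in Sun1_WT and 53.6 in Sun1_KO interferon-high nuclei, and at 108 and 65.4 in the others.

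The threshold fell at a score of 6.51 per 10000. Just inside it were a Sun1_KO nucleus with 7 score UMIs of 10758 and a Sun1_WT nucleus with 12 of 18442. Just outside were 2 Sun1_WT nuclei, with 32 of 49205 and 46 of 70739. The median score was 10.5 in Sun1_WT and 10.1 in Sun1_KO interferon-high nuclei, and the highest were 86.9 and 87.2. Over all gated nuclei the median was 1.80 in Sun1_WT and 0.883 in Sun1_KO, and 16.8% and 30.8% of nuclei scored 0. At least 4 of the 6 genes were detected in 71.2% of Sun1_WT and 68.7% of Sun1_KO interferon-high nuclei, against 8.43% and 7.32% of the others. The choice by the summed score fixes this contrast, which is given as a description.

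Levels of the score genes describe the choice. Cxcl10 stood at 351 CPM in Sun1_WT and 537 in Sun1_KO interferon-high nuclei, against 13.5 and 24.9 in the others. Rsad2 stood at 175 and 301 CPM, against 5.62 and 10.6. Without the Xist-marked nuclei, the 5 highest of 93 Sun1_KO interferon-high nuclei held 43.9% of Cxcl10 and 37.5% of Rsad2 UMIs. The 5 highest of 332 in Sun1_WT held 23.4% and 17.1%. Over all gated nuclei, which the score does not sort, Cxcl10 stood at 60.5 CPM in Sun1_WT and 58.9 in Sun1_KO, and Rsad2 at 29.1 and 29.9, so the wide gaps between the libraries on both sides of the threshold were not seen in the whole. Ifit1 stood at 248 and 304 CPM against 21.9 and 30.7, and Ifit3 at 125 in both against 11.3 and 11.2. Isg15 stood at 279 and 238 CPM against 57.3 and 41.1. Ly6c1 stood apart: 357 CPM in Sun1_WT and 105 in Sun1_KO interferon-high nuclei, 92.8 and 24.9 in the others, and 130 and 30.3 over all gated nuclei. The Xist-marked nuclei held 7.02% of its UMIs in Sun1_WT and 47.7% in Sun1_KO interferon-high nuclei. Ly6c2 is a near copy of Ly6c1, and how the counting treated reads that fit both is not stated. Ly6c1 was detected in 85.3% of Sun1_WT and 41.4% of Sun1_KO interferon-high nuclei. Cxcl10 was detected in 48.5% and 62.6%. In the leukocyte reference nuclei, of median depth 3767 and 3655 UMIs, Ly6c1 was detected in 17.5% and 13.6% and Cxcl10 in 27.5% and 31.8%.

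**Figure D1:**
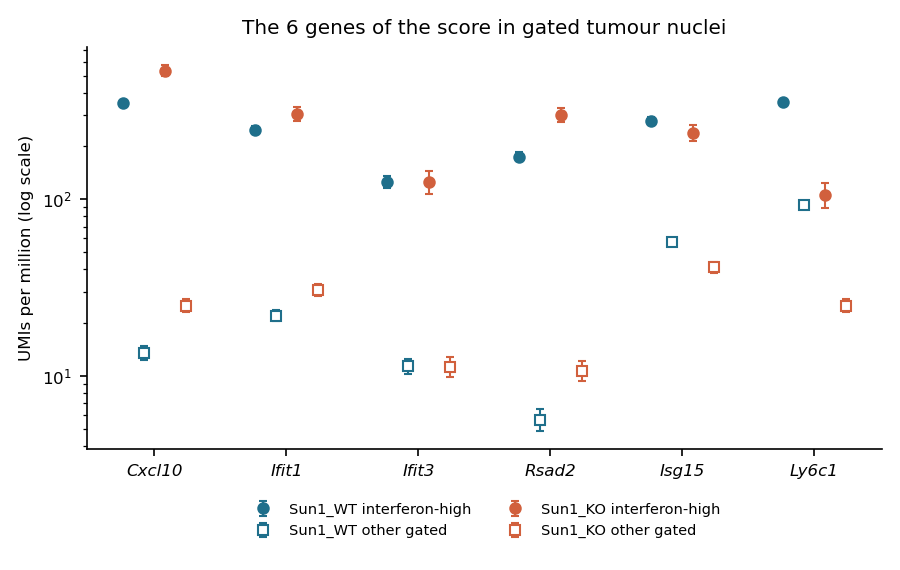
CPM (log axis) of each score gene in interferon-high (filled circles) and other gated nuclei (open squares) of Sun1_WT (blue) and Sun1_KO (orange), with exact 95% Poisson bars. Ly6c1 is higher in Sun1_WT in both groups. Cxcl10 and Rsad2 are higher in Sun1_KO in both, but over all gated nuclei they stood at 60.5 and 29.1 CPM in Sun1_WT and at 58.9 and 29.9 in Sun1_KO.

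Each gene was also left out of the score in turn, and nuclei were chosen again on the other 5. Rsad2 was then higher in the chosen nuclei by 4.44 (95% interval 4.24 to 4.65) on the log2 scale in Sun1_WT and by 4.42 (4.19 to 4.65) in Sun1_KO. Cxcl10 was higher by 4.07 and 3.72, Ifit3 by 3.25 and 3.27, and Ifit1 by 2.88 and 2.87. Isg15 was higher by 1.71 (1.61 to 1.81) and 1.97 (1.76 to 2.16). Ly6c1 was higher by 0.97 (0.87 to 1.06) and 1.36 (1.08 to 1.62), and without the Xist-marked nuclei by 0.89 and 0.81. Of the 6 genes, Ly6c1 followed the others least in both libraries.

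By the rule, 340 of 2308 gated nuclei were interferon-high in Sun1_WT, or 14.7% (exact binomial 95% interval 13.3 to 16.2). In Sun1_KO they were 99 of 1343, or 7.37% (6.03 to 8.90), so the ratio of the shares was 0.50 (0.404 to 0.619). Without the Xist-marked nuclei it was 0.488, and without the barcodes found in both libraries 0.503. Without Ly6c1 in the score, 305 Sun1_WT (13.2%) and 134 Sun1_KO nuclei (9.98%) were taken, a ratio of 0.755 (0.623 to 0.915). With Cxcl10, Ifit1, Ifit3 and Rsad2 alone, a score added after seeing the data, the shares were 12.3% and 11.5% and the ratio 0.938 (0.780 to 1.13). With a score over the antiviral effector genes described below, none of them among the 6, the shares were 12.8% and 10.7% and the ratio 0.839 (0.695 to 1.01). That choice was also added after seeing the data. Leaving out any of the other 5 genes gave ratios between 0.419 and 0.481. The Sun1_KO share was lower under each of these scores, and with the 4-gene and the effector scores the interval of the ratio included 1. Counted gene by gene over all gated nuclei, Cxcl10 was detected in 19.1% of Sun1_WT and 22.8% of Sun1_KO nuclei, Rsad2 in 14.2% and 15.1%, Isg15 in 53.0% and 38.6%, and Ly6c1 in 60.5% and 26.7%. Ifit1 was detected in 29.5% and 29.0%, and Ifit3 in 22.1% and 17.7%. Of the 6 genes the libraries thus differed most in Ly6c1. Cxcl10 was detected more often in Sun1_KO, with a ratio of the shares of 1.19 (1.05 to 1.36). For Rsad2 the ratio was 1.06, and its interval (0.905 to 1.25) included 1.

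**Figure D2:**
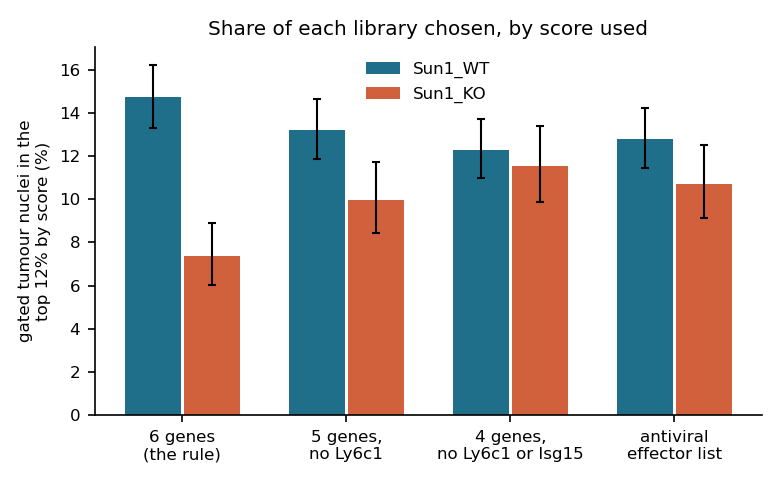
Percent of gated tumour nuclei in the pooled top 12% in each library, for the 6-gene score, for scores that leave genes out and for the antiviral effector list, with exact binomial 95% bars. The libraries are farthest apart with Ly6c1 in the score and closest with Cxcl10, Ifit1, Ifit3 and Rsad2 alone.

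Which gene gave most of a nucleus's score UMIs also differed. Ly6c1 led in 133 Sun1_WT interferon-high nuclei (39.1%) and in 7 of Sun1_KO (7.07%). Cxcl10 led in 56 (16.5%) and 30 (30.3%), and Rsad2 in 18 (5.29%) and 15 (15.2%). Ifit1 led in 68 (20%) and 27 (27.3%). The Sun1_WT nuclei led by Ly6c1 held the least antiviral effector RNA: without Xist-marked nuclei it summed to 10380 CPM in 126 nuclei, against 14057 in the 56 led by Cxcl10 and 16011 in the 18 led by Rsad2. The level in the other gated Sun1_WT nuclei was 5829 CPM. In Sun1_KO, nuclei led by Cxcl10 held 13936 CPM and those led by Rsad2 17755. Without Ly6c1 in the score, 254 of the 340 Sun1_WT nuclei (74.7%) and 96 of the 99 Sun1_KO nuclei (97.0%) were taken again.

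Genes outside the score were compared between interferon-high and other gated nuclei within each library, as log2 ratios of CPM with 0.5 added to each summed count. Of 11933 genes measured in Sun1_WT, 2.34% stood 2-fold or more above the other nuclei in interferon-high nuclei and 0.419% stood 2-fold or more below. At 1.5-fold, the size used for the lists, 5.24% were higher and 2.52% lower. In Sun1_KO, with 11089 genes measured, the 2-fold shares were 2.63% and 1.71% and the 1.5-fold shares 5.74% and 6.87%. The median over all genes was -0.02 in Sun1_WT and -0.07 in Sun1_KO.

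Antiviral effectors were higher nearly throughout. Of the measured genes of that list, 50 of 54 were at least 1.5-fold higher in Sun1_WT (median 1.40) and 47 of 53 in Sun1_KO (median 1.31), and none was 1.5-fold lower. Their summed level was 12317 CPM against 5826 in Sun1_WT and 13777 against 6078 in Sun1_KO. Ifit3b, a close copy of Ifit3 whose reads the counting could divide between both, stood at 38.3 CPM against 3.62 in Sun1_WT (log2 ratio 3.40) and at 38.7 against 4.35 in Sun1_KO (3.16). Oasl1, a relative of the 2′-5′ oligoadenylate synthetases, stood at 95.7 CPM against 14.5 (2.72) and at 223 against 23.8 (3.23). Without the Xist-marked nuclei, the 5 highest of 93 Sun1_KO interferon-high nuclei held 45.6% of Oasl1 UMIs. The 5 highest of 332 in Sun1_WT held 17.2%. Cmpk2, a nucleotide kinase beside Rsad2, had ratios of 2.79 and 2.39. Ifi44 had 1.90 and 2.05, Parp14, an ADP-ribosyltransferase, 1.98 and 1.92, and Slfn2 2.49 and 2.20. Ifi27 was the lowest of the list, with -0.25 and 0.13. Without the Xist-marked nuclei the counts were 48 of 53 and 44 of 51.

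The ISG15 conjugation genes were higher in all 4 cases in both libraries. Herc6, a ligase that attaches Isg15, stood at 477 CPM against 122 in Sun1_WT and at 759 against 204 in Sun1_KO, log2 ratios of 1.96 and 1.90. Usp18, which removes Isg15 and dampens the type I receptor, had ratios of 2.31 and 2.25. Ube2l6 and Uba7, the conjugating and activating enzymes, had 1.14 and 0.87, and 1.04 and 0.87. Guanylate-binding proteins and immunity-related GTPases, which attack the membranes of intracellular microbes, were at least 1.5-fold higher in 20 of 20 genes in each library, with medians of 1.47 and 1.12. Gbp5, which promotes inflammasome assembly, stood at 96.8 CPM against 17.9 and at 207 against 28.9, ratios of 2.43 and 2.84.

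**Figure D3:**
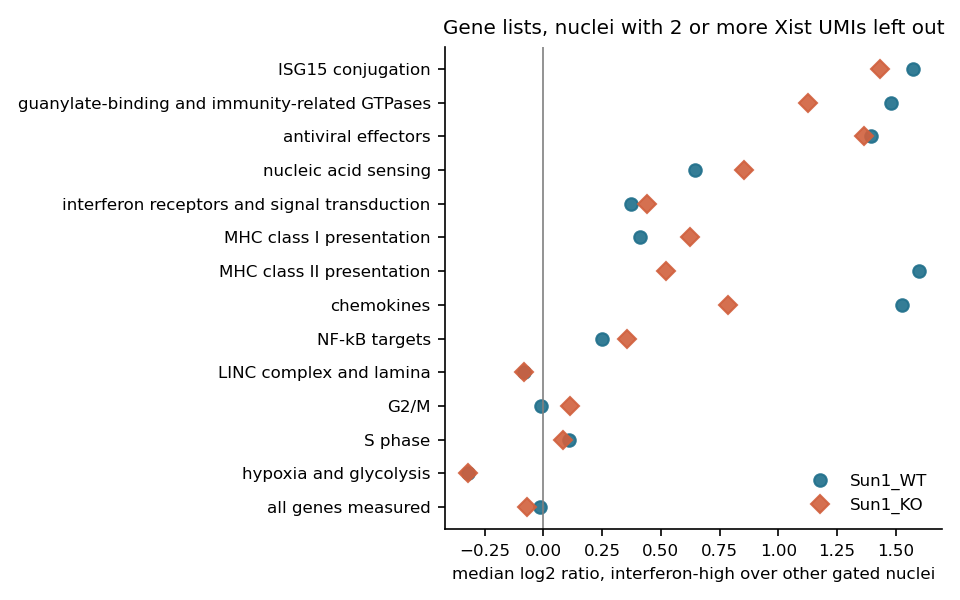
Median log2 ratio of interferon-high over other gated nuclei for each gene list in Sun1_WT (circles) and Sun1_KO (diamonds), without the Xist-marked nuclei. ISG15 conjugation, GTPase and antiviral effector medians lie above 1 in both libraries, MHC class II lies far higher in Sun1_WT, and hypoxia and glycolysis lies below 0.

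Sensors of nucleic acid were higher in part. In Sun1_WT 7 of 14 measured genes were at least 1.5-fold higher (median 0.65), and in Sun1_KO 9 of 14 (median 0.87). The RNA sensors led: Ifih1 (MDA5) had ratios of 1.92 and 2.02, Dhx58 (LGP2) 1.91 and 1.82, Tlr3 1.77 and 1.57, and Ddx58 (RIG-I) 1.35 and 1.38. Zbp1, a sensor of Z-form nucleic acid, had 1.36 and 1.39, and Irf7, the factor that amplifies type I interferon genes, 1.60 and 1.30. Their adaptors and kinases differed less: Tbk1 had 0.26 and 0.25, Irf3 -0.11 and -0.18, and Mavs 0.13 in Sun1_WT and -0.85 in Sun1_KO, on 16 UMIs.

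The interferon ligands were hardly detected. Ifnb1 gave 4 UMIs in 3 Sun1_WT interferon-high nuclei and 0 in the others, and in Sun1_KO 2 UMIs in 1 interferon-high nucleus and 3 in the others. Ifng gave 1 UMI in each Sun1_WT group, and 3 and 4 in those of Sun1_KO. No ratio was read from such counts, and at this depth rare ligand-producing nuclei cannot be seen.

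Among the receptors and their signal proteins, Stat2 had the highest ratio in Sun1_WT. Of 13 genes 5 were at least 1.5-fold higher in Sun1_WT and 6 in Sun1_KO, with a median of 0.42 in both. Stat2 stood at 317 CPM against 124 in Sun1_WT (log2 ratio 1.35) and at 455 against 235 in Sun1_KO (0.96). Irf1 had ratios of 0.81 and 0.81 and Irf9 0.60 and 0.42. Irf2, an antagonist of Irf1, had 0.57 and 0.67, and Stat3 0.42 and 0.35. Among the kinases Jak2 had 0.60 and 1.02, Jak1 0.28 and 0.21, and Tyk2 -0.18 and -0.50. The receptor genes lay near 0 or varied between libraries: Ifnar1 had -0.14 and -0.49, Ifnar2 0.20 and 0.76, Ifngr1 0.23 and -0.10, and Ifngr2 0.09 and 0.29. Of 8 feedback inhibitors, Usp18 and Socs1 (0.91 and 0.89) passed 1.5-fold in each library, and Socs2, with -0.50 and -0.70, was the lowest.

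Antigen presentation to CD8 T cells was modestly higher. The MHC class I genes summed to 15711 CPM against 12787 in Sun1_WT and 13074 against 10436 in Sun1_KO. In Sun1_WT 9 of 22 genes were at least 1.5-fold higher (median 0.42) and in Sun1_KO 12 of 22 (median 0.64). The non-classical H2-T23 (Qa-1) had ratios of 1.04 and 1.63, or 0.89 and 1.14 without the Xist-marked nuclei. The immunoproteasome subunit Psmb10 had 0.83 and 0.91, and Nlrc5, the transactivator of class I genes, 0.85 and 0.81. The classical heavy chain H2-K1 had 0.27 and 0.31 and the light chain B2m 0.28 and 0.24. Calr, a chaperone of the pathway, had 0.03 and -0.01.

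MHC class II genes, which present peptides to CD4 T cells and are made by few cell types without interferon gamma, differed between libraries. In Sun1_WT 7 of 8 genes were at least 1.5-fold higher in interferon-high nuclei (median 1.56), and in Sun1_KO 1 of 7 (median 0.47). Their sum stood at 396 CPM against 149 in Sun1_WT and at 179 against 133 in Sun1_KO. Ciita, the transactivator of these genes, gave 83 UMIs in Sun1_WT interferon-high nuclei, a log2 ratio of 2.0, and 1 UMI in those of Sun1_KO. Without Xist-marked nuclei it was detected in 46 of 332 nuclei (13.9%, interval 10.3 to 18.0) and in 1 of 93 (1.08%, up to 5.85). Among the other gated nuclei it was found in 4.90% and 2.54%. Cd74, the invariant chain, had ratios of 1.54 and 0.47, H2-Aa 1.59 and 0.52, H2-Eb1 1.76 and 0.61, and H2-DMb1 1.85 and 0.34. Of the H2-Aa UMIs in those 332 Sun1_WT nuclei, the 5 highest held 16%. Macrophages make these genes too, and macrophage markers were 111 CPM in these Sun1_WT nuclei against 101 in the others; their part in the result was not tested. Leaving out every nucleus with a UMI of Ptprc, Cd74 or another of 6 myeloid genes removes the class II signal by construction, and 0 of the list then passed in either library. The Sun1_KO count depended on the share taken: 7 genes passed when the top 5% of nuclei were taken and 0 with the top 20%. In Sun1_KO nuclei above the 95th percentile of the score, without Xist-marked ones, class II RNA summed to 294 CPM and macrophage markers to 255. From the 88th to the 95th percentile they stood at 124 and 133 CPM. In Sun1_WT, macrophage markers were 121 and 105 CPM in the same ranges. What part macrophage RNA had in the Sun1_KO values was not tested.

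Chemokines beside Cxcl10 depended on few nuclei. Of the measured genes 4 of 7 were at least 1.5-fold higher in Sun1_WT and 6 of 7 in Sun1_KO, and without the Xist-marked nuclei 4 of 6 and 3 of 5. Cxcl9, which shares a receptor with Cxcl10, had log2 ratios of 4.08 and 3.23 over all interferon-high nuclei and of 1.28 and 0.55 without the marked ones. Ccl2, which draws monocytes, had 2.41 and 2.79, and 2.29 and 0.79 without them. Its Sun1_WT RNA was widespread, in 186 of 332 nuclei (56.0%) against 30.5% of the others. In Sun1_KO it was found in 11.8% against 9.0%. Ccl5 had ratios of 2.04 and 3.11, but 4 nuclei held all 43 of its Sun1_KO UMIs outside the marked nuclei, and 5 nuclei held 75.3% of those in Sun1_WT.

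Ligands that act on T cells were higher in part. Cd274, which encodes PD-L1, had log2 ratios of 1.70 and 1.87 and was detected in 61.4% and 66.7% of interferon-high nuclei without Xist, against 30.1% and 38.5% of the others. Tnfsf10, the death ligand TRAIL, had 3.38 and 2.62, and Lgals9 1.43 and 1.04. Cd47, a signal against phagocytosis, had 0.43 and 0.43. Over the checkpoint list 5 of 10 genes passed 1.5-fold in Sun1_WT (median 0.55) and 3 of 8 in Sun1_KO (median 0.09). Of 15 measured cell death genes 6 and 5 passed. Fas had ratios of 1.34 and 1.24, the inflammatory caspase Casp4 0.92 and 1.26, and Mlkl, the executor of necroptosis, 0.88 and 0.89. NF-kB targets passed in 2 of 13 and 6 of 13, with medians of 0.34 and 0.42. Ly6a (Sca-1), a relative of Ly6c1, had 1.38 and 1.28, and Ly6e 0.48 and 0.43.

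The 15 genes highest by the interval bound nearest 1 fell into separate groups. With all interferon-high nuclei they included Igfbp3, Meg3, Brinp3, Pdzrn3, Lama4, Col5a2, Col12a1, Rora and Cxcl14, genes whose RNA lay largely in the Xist-marked nuclei. Rarres2, Pla1a and Cxcl9 stood there too. Without those nuclei the 15 were Trim30c, Ifit3b, Oasl1, Ifi44l, Tnfsf10, Gbp5, Cmpk2, Usp18, Herc6, Ifih1, Ifi44, Parp14, Slfn8, Slfn2 and Ccl5. Of these, Trim30c and Ifi44l stood in none of the lists. Trim30c, of the TRIM family, had log2 ratios of 3.57 and 3.85 over all interferon-high nuclei, and Ifi44l 2.51 and 2.54.

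Among the 10 genes lowest by the same rule were several of high RNA. Ero1l, an oxidase of the endoplasmic reticulum that hypoxia raises, stood at 222 CPM against 434 in Sun1_WT (log2 ratio -0.96) and at 135 against 241 in Sun1_KO (-0.83). Tfrc, the transferrin receptor, had -0.57 and -0.82, Grem1, a BMP antagonist, -0.41 and -0.69, and Tes, an adhesion protein, -0.63 and -0.80. Grip1 had -1.35 and -1.90, on 33 and 5 UMIs. Hypoxia and glycolysis genes lay low as a list: 22 of 23 measured genes were below 0 in Sun1_WT and 19 of 23 in Sun1_KO, with medians of -0.28 and -0.20, and 2 were at least 1.5-fold lower in each. Of all genes measured, 53.8% and 60.1% were below 0. The list's median was 0.03 in Sun1_WT without nuclei holding a Ptprc or myeloid UMI, where 85 were interferon-high. It was 0.01 in Sun1_KO with the top 5%. Ankrd37 had -0.77 and -0.62, and Pdk1, which turns pyruvate away from respiration, -0.64 and -0.35. The cell cycle lists lay near 0, with medians of 0.08 and 0.04 for S phase and -0.06 and 0.03 for G2/M. The LINC complex and lamina list had medians of -0.07 and -0.15. Its highest gene was Tor1aip1, a lamina-associated partner of torsins, with 0.79 and 0.78.

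The same lists were followed over 5 bins of the score, without the Xist-marked nuclei. Antiviral effector RNA was 4152 CPM in Sun1_WT nuclei with a score of 0, then 5510, 8239, 10636 and 15238 in the top bin. In Sun1_KO it was 4433, 6095, 10102, 12423 and 17186. The list was thus higher in each bin than in the one before, in both libraries. Within each bin it was higher in Sun1_KO, but the bins are set by a score that holds Ly6c1, and over all of them together the list summed to 6725 CPM in Sun1_WT and 6591 in Sun1_KO. MHC class I RNA went from 11458 to 16063 CPM in Sun1_WT and from 9611 to 13561 in Sun1_KO. Hypoxia and glycolysis RNA went from 6615 to 4422 CPM in Sun1_WT and from 4259 to 3325 in Sun1_KO, where its lowest value, 3013, was in the middle bin.

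**Figure D4:**
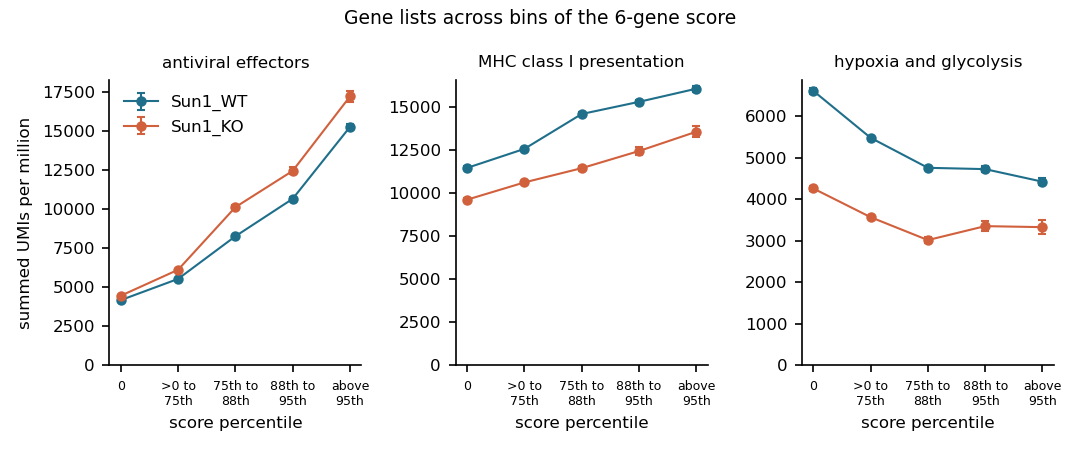
Summed CPM of gene lists in 5 bins of the score from 0 to above the 95th percentile, in Sun1_WT and Sun1_KO nuclei without Xist, with the threshold lying between the third and the fourth bin. Antiviral effector RNA is higher in every bin than in the one before in both libraries.

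Between the libraries, within interferon-high nuclei, 8.68% of 8640 genes stood 1.5-fold or more above Sun1_WT in Sun1_KO and 9.92% as far below. Among the other gated nuclei the shares were 7.81% and 7.71%. Antiviral effectors had a median log2 ratio of Sun1_KO over Sun1_WT of 0.26 in interferon-high and 0.30 in other nuclei. The GTPases had 0.17 and 0.44. MHC class II genes had -1.03 in interferon-high and 0.04 in other nuclei. Ly6c1 had -1.76 and -1.90, and Sun1 -0.78 and -0.72. The authors' deposited table, whose header does not state its direction, lists Ly6c1 at -1.74, Isg15 at -0.41, Rsad2 at 0.56, Cxcl10 at 0.26 and Sun1 at -0.35. The score divides the nuclei, so the same was computed over all gated nuclei, where the effectors summed to 6729 CPM in Sun1_WT and 6589 in Sun1_KO, with a median over 51 genes of 0.15. There the GTPases had a median of 0.25 and MHC class II genes -0.28. The summed effector RNA was thus not higher in Sun1_KO over all gated nuclei. With 1 library each, whether the libraries differ was not tested.

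Some genes had unlike ratios of interferon-high over other nuclei in the 2 libraries. With all nuclei and ranked by the interval bound nearest 0, Igfbp3, Meg3, Igfbp7, Ebf1 and Mgp came first among differences of log2 ratio (Sun1_KO minus Sun1_WT) below 0, with -3.63, -3.99, -3.14, -3.11 and -1.62. Ank3, Cask, Col1a1, Tnc and Ccdc80 came first among those above 0, with 1.99, 2.03, 1.55, 1.37 and 1.46. Of the Igfbp7 and Ebf1 UMIs the Xist-marked nuclei held 98.3% and 92.5% in Sun1_WT, and without these nuclei Igfbp3 had a difference of 1.58 on 1 and 3 UMIs. Col1a1 had -0.55 (-0.84 to -0.27), on the other side of 0. Ank3 and Tnc had -0.29 and -0.63, and the intervals of these and of Igfbp3 included 0. Without the Xist-marked nuclei, by the same ranking, the first above 0 were Ghr, Yae1d1, Ndst4, Hmga1 and Plk2 (0.79, 1.05, 0.68, 0.97 and 0.90), and the first below 0 Mgp, Cyp26b1, Plekha6, Ccl2 and Plxdc1 (-1.57, -2.44, -1.32, -1.50 and -1.52). Mgp, a matrix protein that blocks calcification, was higher in Sun1_WT interferon-high nuclei (log2 ratio 0.85) and lower in those of Sun1_KO (-0.77). It was detected in 56.6% of Sun1_WT interferon-high nuclei against 48.4% of the others, and in Sun1_KO in 48.4% against 43.8%, without the Xist-marked nuclei, so detection was higher in both. The 5 nuclei with most Mgp held 29.3% of its UMIs in Sun1_WT and 48.7% in Sun1_KO interferon-high nuclei.

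The accessibility counts took no part in the choice of nuclei. Each gene's promoter peak was read in CPM of all counts in peaks. The Ifit1 promoter peak, which covers the sequence above, stood at 20.5 CPM against 13.4 in Sun1_WT and at 21.6 against 14.6 in Sun1_KO, log2 ratios of 0.61 (0.47 to 0.75) and 0.57 (0.34 to 0.79). The Ifit3 peak stood at 19.4 against 13.0 (0.58) and at 22 against 12.4 (0.83). The Rsad2 peak stood at 19.7 against 13.1 (0.59) and at 20.3 against 13.3 (0.61), and that of Isg15 at 23.7 against 17.9 (0.41) and at 28.3 against 18.9 (0.59). Cxcl10 differed least, at 32.4 against 26.1 (0.31, 0.20 to 0.42) and at 32.7 against 27.5 (0.25, 0.07 to 0.43). All 5 of these promoter peaks thus stood higher in interferon-high nuclei of both libraries, each by less than 2-fold. Most accessibility values above 0 were even, while the intervals take each count as separate. If counts came in pairs the intervals are too narrow, and that of Cxcl10 in Sun1_KO began at 0.07.

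**Figure D5:**
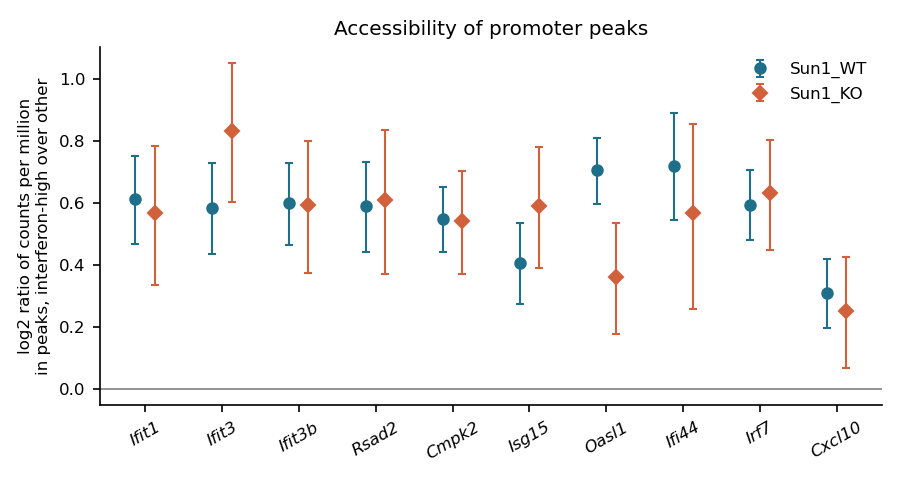
Log2 ratio of accessibility, interferon-high over other gated nuclei, at promoter peaks of score and antiviral genes in Sun1_WT and Sun1_KO, with exact 95% bars. All points lie above 0, between 0.25 and 0.83. The antiviral genes outside the score were picked without a rule. The bars take each count as separate and are too narrow if counts came in pairs.

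A few promoters outside the score, picked without a rule, were higher too. Oasl1 had log2 ratios of 0.71 and 0.36, Ifi44 0.72 and 0.57, Ifit3b 0.60 and 0.59, Irf7 0.59 and 0.63, and Cmpk2 0.55 and 0.54. Of all measured antiviral effector promoter peaks, 43 of 45 in Sun1_WT and 40 of 44 in Sun1_KO lay above 0. Their medians were 0.26 and 0.24, and 7 and 2 were at least 1.5-fold higher. Irf7 was the highest of the nucleic acid sensing promoters, of which 12 of 12 and 7 of 12 lay above 0. Summed over the peaks of a locus, the antiviral effectors lay above 0 at 54 of 59 loci in Sun1_WT (median 0.22) and at 53 of 59 in Sun1_KO (median 0.24). Over all genes placed, 51.4% and 53.2% lay above 0, with medians of 0.00 and 0.01. GTPase loci lay above 0 at 20 and 21 of 21, with medians of 0.35 and 0.26. MHC class II loci lay above 0 at 8 of 8 in Sun1_WT (median 0.32) and at 4 of 8 in Sun1_KO (median 0.01). Hypoxia loci did so at 9 and 10 of 26. Effector and GTPase loci of both libraries and the class II loci of Sun1_WT thus lay mostly above 0, as their RNA did, and hypoxia loci mostly below.

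Ly6c1 again stood apart. No peak covered its promoter, and the 3 peaks of its locus summed to 62.7 CPM in Sun1_WT and 59.3 in Sun1_KO interferon-high nuclei, against 56.9 and 52.0 in the others. The log2 ratio of interferon-high over other nuclei was 0.14 in Sun1_WT and 0.19 in Sun1_KO, beside effector locus medians of 0.22 and 0.24. A measured promoter peak was also missing for the 9 genes of the Ly6 list. Between the libraries the locus differed by -0.08 (-0.23 to 0.07) in interferon-high nuclei, where its RNA differed by -1.76. In the other gated nuclei the locus differed by -0.13 (-0.18 to -0.08) and the RNA by -1.90.

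Over 98496 regions shared by both peak sets, 0.761% stood 2-fold or more above and 1.12% as far below the other nuclei in Sun1_WT interferon-high nuclei, and 1.92% and 3.64% in those of Sun1_KO. Higher in both libraries were 161 regions, of which 9 (5.59%) lay within 50 kb of one of the 103 genes of the interferon lists, against 903 of all regions (0.917%). Of the 127 lower in both, 0 did. The region at chr12:26464094-26464934, between Rsad2 and Cmpk2 and 4183 bp from the latter, stood at 2.49 CPM against 0.552 in Sun1_WT (log2 ratio 2.18) and at 3.07 against 0.798 in Sun1_KO (1.96). One at chr5:92376815-92377712, at Art3 and 13519 bp from Cxcl11, had 1.67 and 1.71, and one at chr11:48901842-48902712, 30422 bp from Irgm1, 1.88 and 1.67. The other named regions were chr9:57927412-57928358 at Ubl7 (1.73 and 1.89) and chr7:12937060-12937945 (1.37 and 1.79). The lowest region, chr8:24782756-24783560 in Adam5, had 5 counts against 159 and 2 against 198.

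Promoter letters and RNA were set side by side over genes outside the score. Of measured genes whose promoter holds GAAANNGAAA, 90 of 374 (24.1%) were at least 1.5-fold higher in Sun1_WT interferon-high nuclei, against 336 of 8790 (3.82%) without it. In Sun1_KO they were 79 of 350 (22.6%) against 374 of 8327 (4.49%). Accessibility of antiviral effector promoter peaks differed little by the letters. The median log2 ratio was 0.27 with them and 0.25 without in Sun1_WT, and 0.27 and 0.21 in Sun1_KO. The letters stood in 21 of 47 matched antiviral effector promoters (44.7%), in 10 of 12 of the GTPases (83.3%) and in 1 of 24 of the hypoxia genes (4.17%). Other lists did not follow their RNA in this way. The letters stood in 0 of 3 ISG15 conjugation genes, a list higher throughout, and in 0 of 7 chemokines. They stood in 5 of 19 MHC class I genes (26.3%) and 4 of 23 cytosolic ribosomal protein genes (17.4%).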

How the data were processed

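RNA and accessibility counts of nuclei from 1 Sun1_WT and 1 Sun1_KO tumour library each were used as deposited. The authors' tables give UMI counts per gene and nucleus, and counts per peak and nucleus, per the file headers. Cell Ranger, Cell Ranger ARC, FastQC, Seurat and Signac and the build mm10 stand in the submitters' processing notes, with no version. The authors' deposited DESeq2 table gives a mean signal, a log2 fold change with its error, a Wald score and p-values; only log2 values are printed from it.

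Nuclei were required to hold 500 UMIs and 300 genes or more, with mitochondrial UMIs not above 20%, which left 3345 of 3455 in Sun1_WT and 2172 of 2404 in Sun1_KO. No doublet caller was run and no doublet was removed. Counts were summed per library and group, and genes with at least 100 UMIs over the groups compared were measured. Intervals are exact binomial or Poisson ones. Of the accessibility values above 0, 75.5% and 75.0% were even. The accessibility intervals take each count as separate and are too narrow if counts came in pairs. A peak within 1000 bp of a gene belonged to its locus, and regions shared by both peak sets overlapped by at least 1 bp. Named genes were the score genes, the 15 highest and 10 lowest by the interval bound nearest 1 in the weaker library, the 5 most unlike between libraries in each direction, the extremes of each list and every interferon receptor and signalling gene. The members and the lists were chosen with earlier results of these data known. The ratio calculation was tested on simulated data. Scaling by TMM (edgeR 4.0.16, R 4.3.3) and by median ratio, other thresholds, scores, gates and minimum counts were tried. Python 3.11.15 with numpy 2.4.6, scipy 1.17.1 and pandas 2.3.3 was used. The values of 1 gene of the receptor and signal list are not reported here.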

Additional observations from a re-analysis of the deposited data

Results flagged for a closer look

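Among 150 named genes measured in both libraries, 10 had a ratio of interferon-high over other gated nuclei that pointed one way in Sun1_WT and the other way in Sun1_KO, with each library's counting interval on its own side of 0. Several of them were named because the libraries differed in them. Of all 11007 genes measured in both, 199 (1.81%) met the same condition. None of these differences was tested, since each genotype is 1 library. Mgp had log2 ratios of 0.85 and -0.77, a difference of Sun1_KO minus Sun1_WT of -1.62. Cyp26b1, which breaks down retinoic acid, had 0.46 and -1.36 (difference -1.82, on 5 Sun1_KO UMIs), and Plekha6 had 0.78 and -0.59 (difference -1.37). The other 7 were higher in the Sun1_KO interferon-high nuclei. The growth hormone receptor Ghr had -0.58 and 0.17 (difference 0.74). Without nuclei holding a Ptprc or myeloid UMI, where 85 and 22 were interferon-high, that difference was -0.0014 (-0.17 to 0.17). Without Xist-marked nuclei Ghr was detected in 90.3% of Sun1_KO interferon-high nuclei against 97.0% of the others. Yae1d1 had -0.31 and 0.71 (1.02), Ndst4 -0.35 and 0.29 (0.64), the chromatin protein Hmga1 -0.32 and 0.63 (0.95) and the kinase Plk2 -0.44 and 0.42 (0.86). The ribosomal proteins Rpl19 and Rpl15 had -0.10 and 0.26 (0.36), and -0.15 and 0.19 (0.34).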

How the results depend on the processing

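No paired analysis was possible because each genotype has 1 library. Leaving a replicate out was not possible for the same reason. The cause of the changes below was not tested, except that fewer or more genes are counted under another minimum. Taking 12% in each library fixes the shares and gives no ratio.

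The share ratio of 0.50 was 0.755 without Ly6c1, 0.938 with the 4-gene score and 0.839 with the effector score, and between 0.452 and 0.596 under the other thresholds and gates and the z-scored score. Over 15 alternatives the antiviral effectors passed 1.5-fold in 45 to 50 genes in Sun1_WT and in 36 to 47 in Sun1_KO, and the GTPases in 19 to 20 and 18 to 20.

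Genes 2-fold lower in Sun1_WT (50) numbered 160 with the top 5%, 22 with the top 20%, 28 after thinning to 2000 UMIs, 82 with 12% in each library, 10 with 5 added to counts, 203 at a minimum of 30 UMIs and 12 at 300. Genes 2-fold higher in Sun1_WT (279) numbered 185 without nuclei holding a Ptprc or myeloid UMI, 601 at 30 and 172 at 300. In Sun1_KO, genes 2-fold higher (292) numbered 505 with the top 5%, 173 without myeloid UMIs, 192 without Xist-marked nuclei, 193 with the 4-gene score, 666 at 30 and 150 at 300. Genes 2-fold lower there (190) numbered 681 with the top 5%, 69 with the top 20%, 126 with a z-scored score, 102 without Ly6c1, 53 with the 4-gene score, 69 with 12% in each library, 8 with 5 added, 492 at 30 and 32 at 300.

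MHC class II genes passing in Sun1_KO (1) numbered 7 with the top 5%, 4 with 5 added, 2 after thinning or without Xist-marked nuclei, and 0 with the top 20%, at least 3000 UMIs, the z-scored score, no Ly6c1, no myeloid UMI, Hmga2 at least 10 per 10000 or the 4-gene score. In Sun1_WT (7) it was 0 without myeloid UMIs. Hypoxia genes 1.5-fold lower in Sun1_KO (2) numbered 1 with the top 5%, the z-scored score or no Ly6c1, 6 without myeloid UMIs and 0 with 5 added. In Sun1_WT (2) they numbered 1 without Ly6c1 or with the 4-gene score, 0 without myeloid UMIs, and 4 after thinning or without Xist-marked nuclei. MHC class I genes (12 in Sun1_KO, 9 in Sun1_WT) numbered 7 with the z-scored score and 4 with the 4-gene score in Sun1_KO, and 4 after thinning in Sun1_WT.

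Within interferon-high nuclei, genes 1.5-fold higher in Sun1_KO (750) numbered 434 without myeloid UMIs, 326 at 300 UMIs and 447 with median-ratio scaling, which moves the median gene by 0.12; genes lower (857) numbered 424, 426 and 1201. With the top 20%, the left-out Cxcl10 had 3.69 and 3.27, Rsad2 4.24 and 4.16, and Ifit3 3.06 in Sun1_WT. Ly6c1 had 0.81 in Sun1_KO without Xist-marked nuclei.

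Regions 2-fold higher in Sun1_WT (750) numbered 106 with counts made binary, 270 with counts halved and 109 at 300 counts, and regions lower (1108) 205, 393 and 176. In Sun1_KO, regions higher (1892) numbered 270, 638 and 158, and lower (3584) 792, 1433 and 665.

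Single genes whose value changed sign were few, and the intervals of several included 0. Without Xist-marked nuclei the Sun1_KO ratios were -0.78 for Pdzrn3, -0.89 for Lama4, -0.30 for Col12a1 and -1.81 for Rora, and the differences between libraries -0.29 for Ank3, -0.55 for Col1a1, -0.63 for Tnc, 1.58 for Igfbp3 and -1.50 for Ccl2. Without myeloid UMIs, Ccl5 had -0.66 in Sun1_KO, and the differences were -2.0 for Ank3, -0.47 for Col1a1, -0.42 for Tnc and -0.0014 for Ghr. After thinning, Igfbp3 had -0.13 in Sun1_WT and Pdzd7 0.14 in Sun1_KO, and the differences were 1.48 for Igfbp3 and -0.36 for Ccl2. The difference of Ccl2 was -0.12 with the 4-gene score, and that of Ebf1 0.45 with the z-scored score and 0.21 with Hmga2 at least 10.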

Other observations

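When nuclei were chosen by the antiviral effector list instead, 295 Sun1_WT and 144 Sun1_KO nuclei were taken. They held 61.2% of the Sun1_WT and 68.7% of the Sun1_KO interferon-high nuclei. The score genes, which took no part in that choice, were higher in the chosen nuclei: Rsad2 by 4.69 and 4.21 on the log2 scale, Cxcl10 by 4.11 and 3.24, Ifit1 by 3.36 and 3.24, and Ifit3 by 3.43 and 3.24. Isg15 was higher by 2.15 and 2.32, and Ly6c1, again the least of the 6, by 1.25 and 1.62.

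Cytosolic ribosomal protein genes had a median log2 ratio of interferon-high over other nuclei of -0.13 in Sun1_WT, where 0 of 30 lay above 0, and of 0.05 in Sun1_KO, where 25 of 30 did. Between the libraries their median was -0.64 in interferon-high nuclei and -0.89 in the others, lower in Sun1_KO in both.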
